A study of Sus scrofa with 12 samples.

Results

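Single-exon intergenic transcripts were taken from the transcript models that Cufflinks had assembled in each of 12 libraries of longissimus dorsi, the loin muscle of the pig. A member had 1 exon and at least 200 bases, was placed on an assembled chromosome and lay over 2000 bases from every gene of the Sscrofa11.1 RefSeq annotation on either strand. Of 433576 transcripts on chromosomes, 27836 met this rule. Members that overlapped by at least 1 base were merged across libraries into 5869 regions, which cover 11.58 Mb or 1.17% of the 989 Mb of sequence over 2000 bases from a gene.

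The libraries came from 12 purebred Iberian castrated males of a closed commercial herd, fattened outdoors on acorns and grass, 1 library per pig. The H group held 6 pigs with a high estimated breeding value for intramuscular fat (IMF) and the L group 6 pigs with a low one. The labelled IMF ran from 10.62 to 13.8% in H and from 1.7 to 2.28% in L, and the labelled breeding values from 2.78 to 3.48 and from -1.46 to -1.31. The mean IMF that the study reports for L lies above all labelled L values, while its mean for H lies within the labelled range. The sources used here do not explain this difference. Siblings had been left out, the pigs came from several fattening and slaughter batches, and the batch and the sequencing lane of each pig are not given in the sources used here. Replicates are single pigs, and no treatment was given.

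RNA outside annotated genes can come from noncoding genes, from transcription that runs on past the end of a gene, from unannotated parts of a gene, from enhancers and from repeats. A single-exon model is weaker evidence for a new gene than a spliced one, since it has no splice junction, which would also give its strand. Copies of mitochondrial DNA in the nuclear genome and copies of transposable elements are frequent in mammals, and short reads from a copy can be placed on another copy that has nearly the same sequence.

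Sequences of 5 regions are shown because they carry the main contrasts in the set. Each is 300 bases of the plus strand of Sscrofa11.1. Both regions of the first pair are among the 10 with the highest level and match the mitochondrial genome, and capitals mark the bases in which they differ from it. The stretch on chromosome 4 is chr4:53953504-53953803 and that on chromosome 9 is chr9:4700359-4700658.
chr4:53953010-53954300: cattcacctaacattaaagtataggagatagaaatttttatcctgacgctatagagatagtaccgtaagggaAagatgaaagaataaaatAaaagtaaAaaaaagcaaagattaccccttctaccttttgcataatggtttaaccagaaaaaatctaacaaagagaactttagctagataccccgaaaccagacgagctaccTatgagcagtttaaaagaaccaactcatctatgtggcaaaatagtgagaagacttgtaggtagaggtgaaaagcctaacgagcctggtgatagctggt
chr9:4700194-4701067: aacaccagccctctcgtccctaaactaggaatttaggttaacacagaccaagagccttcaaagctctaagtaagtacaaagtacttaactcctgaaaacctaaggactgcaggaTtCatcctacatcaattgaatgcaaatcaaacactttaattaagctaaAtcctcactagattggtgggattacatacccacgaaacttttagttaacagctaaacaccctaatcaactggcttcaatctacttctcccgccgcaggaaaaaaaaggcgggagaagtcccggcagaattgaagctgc
The stretch on chromosome 4 differed from the mitochondrial genome in 4 of 300 bases and that on chromosome 9 in 3 of 300.

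The next sequence belongs to a region before MIR206, the gene of a microRNA of skeletal muscle, and the last pair to regions found in all pigs of 1 group and in no pig of the other. Capitals mark AATAAA, the usual signal for cleavage and polyadenylation, or TTTATT, the same signal on the other strand. The stretches are chr7:45968054-45968353, chr4:105914458-105914757 and chr5:54967297-54967596, at the middle of the bases that the most libraries share.
chr7:45966584-45969354: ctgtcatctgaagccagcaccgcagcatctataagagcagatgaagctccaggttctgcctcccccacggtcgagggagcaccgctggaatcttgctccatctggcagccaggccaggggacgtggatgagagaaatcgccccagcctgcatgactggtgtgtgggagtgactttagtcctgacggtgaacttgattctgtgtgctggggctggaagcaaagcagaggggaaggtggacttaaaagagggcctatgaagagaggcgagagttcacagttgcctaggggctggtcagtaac
chr4:105913564-105917231: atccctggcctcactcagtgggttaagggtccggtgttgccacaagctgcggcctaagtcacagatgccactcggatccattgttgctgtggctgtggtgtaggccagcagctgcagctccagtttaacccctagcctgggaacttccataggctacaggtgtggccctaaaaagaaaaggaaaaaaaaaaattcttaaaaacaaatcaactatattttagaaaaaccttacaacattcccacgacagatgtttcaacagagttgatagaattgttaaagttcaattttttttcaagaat
chr5:54963962-54968877: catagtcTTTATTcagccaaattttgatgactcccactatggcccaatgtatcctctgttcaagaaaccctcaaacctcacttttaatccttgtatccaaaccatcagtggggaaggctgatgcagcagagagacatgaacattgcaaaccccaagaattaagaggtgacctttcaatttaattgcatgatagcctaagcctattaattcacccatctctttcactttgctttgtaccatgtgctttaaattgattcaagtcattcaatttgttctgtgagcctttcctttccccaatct
The motif occurs in the last of these stretches alone. In the intergenic space 44.6% of windows of 300 bases hold it on either strand.

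The members were short and weakly covered. Their median length was 1058 bases (quartiles 783 and 1537, range 201 to 21039), and their median level was 0.313 FPKM (fragments per kilobase of transcript, relative to the mapped fragments of the library), with quartiles of 0.238 and 0.433. Levels under 1 FPKM made up 96.0% of members, while 57 members were over 10 FPKM. The coverage of a member, its mean depth times its length, had a median of 2927 bases and a minimum of 766. Strand was given for 1612 members and was missing for 26224. On either side of the distance limit the transcripts were alike, with a median of 0.326 FPKM for the 4625 members nearest to a gene, within 1000 bases of the limit, and of 0.333 FPKM for 6490 single-exon transcripts within 1000 bases on its other side. The length limit cut through a steep change, from a median of 2.77 FPKM for 244 members of 200 to 300 bases to 35.3 FPKM for 230 intergenic transcripts of 100 to 200 bases.

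Whole libraries differed in depth and makeup. Coverage per FPKM, a measure of depth, ran from 7.50 to 11.5 in H and from 8.39 to 11.3 in L and did not differ between groups (9.73 ± 1.53 and 9.64 ± 1.11, SD, n = 6 each, exact permutation test, p = 0.905). The number of assembled transcripts on chromosomes was higher in H, at 38257 ± 3119 against 34006 ± 1976 (SD, n = 6 each, exact permutation test, p = 0.00866), and 5 of 6 H libraries lay above all L libraries. Markers of skeletal muscle summed to 34070 to 48212 FPKM in H and to 38127 to 45219 FPKM in L, so the label of the tissue holds. Of the other lists, erythroid markers were at a median of 237 FPKM in H (87.5 to 303) and 94.7 FPKM in L (75.3 to 162), and adipocyte markers at 134 FPKM (104 to 204) and 112 FPKM (75.3 to 129). Endothelial markers were at medians of 79.3 and 69.3 FPKM and markers of macrophages and lymphocytes at 8.98 and 6.96 FPKM. SLC4A1, CLDN5, CD68 and MS4A1 were listed at 0 in all libraries. Only 1 of 6 erythroid markers was above 0 in all libraries, beside 5 of 8 adipocyte and 5 of 6 endothelial markers. For macrophages and lymphocytes it was 3 of 6.

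The number of members per library ran from 1802 through a median of 2398 to 3502 in H and from 1773 through 2189 to 2313 in L. The H4 library held the most and the L3 library the fewest, and 3 H libraries lay above all L libraries. The means were 2523 ± 645 and 2117 ± 218 (SD, n = 6 each). The difference did not pass an exact two-sided permutation test (p = 0.197, adjusted p = 0.492 over 5 measures). As a share of the transcripts on chromosomes, members made up 6.53% ± 1.19 in H and 6.21% ± 0.376 in L (SD, n = 6 each, exact p = 0.535, adjusted 0.668). The median length was 1066 bases ± 27.7 in H and 1053 ± 25.9 in L (SD, n = 6 each, exact p = 0.522, adjusted 0.668), and the median level, scaled between libraries, 0.324 FPKM ± 0.0551 and 0.322 ± 0.0402 (SD, n = 6 each, exact p = 0.957, adjusted 0.957).

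The coverage of members was higher in H relative to genes. As a share of the coverage of transcripts assigned to annotated genes it ran from 0.223% through a median of 0.273% to 0.337% in H, and from 0.181% through 0.206% to 0.242% in L. All 6 H libraries lay above the L median and 4 above every L library, the highest of which was L1. The means were 0.279% ± 0.0479 and 0.208% ± 0.0200 (SD, n = 6 each), a difference of 0.0709 percentage points that passed the exact permutation test (p = 0.00649, adjusted 0.0325 over 5 measures). Fewer cells of a type and less RNA per cell cannot be told apart in bulk muscle. The coverage of genes, the denominator, was alike in both groups (6.27 ± 0.776 and 6.36 ± 0.788 Gb, SD, n = 6 each, exact p = 0.853). The summed length of members was 3.51 Mb ± 0.960 in H and 2.86 ± 0.288 in L (SD, n = 6 each, exact p = 0.156). Their mean coverage was 5.08 ± 0.709 and 4.61 ± 0.417 reads per base (SD, n = 6 each, exact p = 0.188). Neither passed the exact permutation test by itself.

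**Figure D1:**
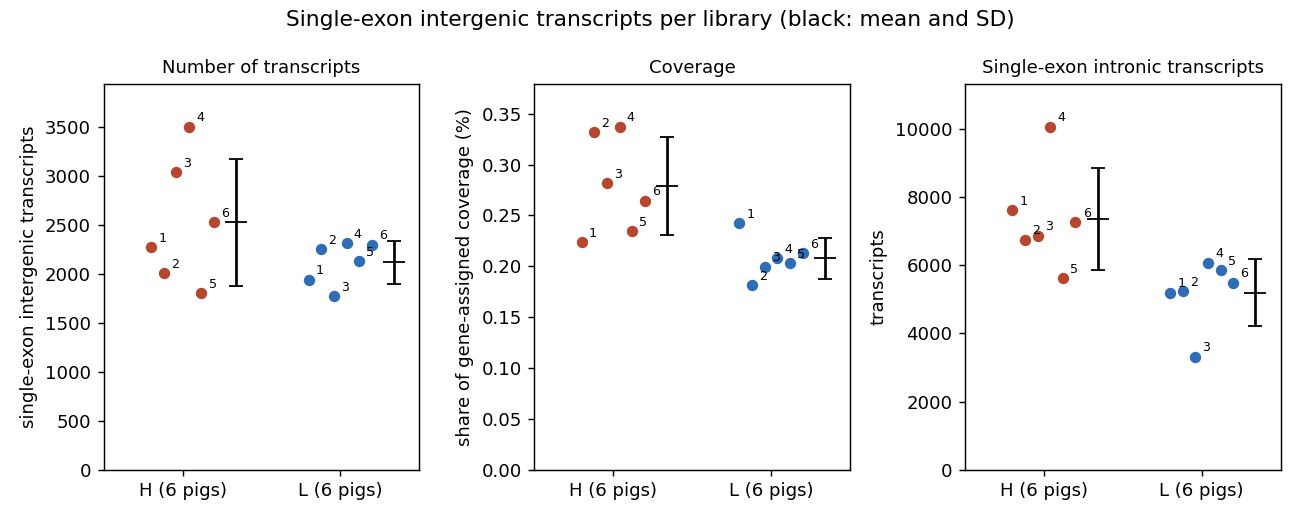
Each point is 1 library with its individual number, and black marks give the mean and SD of 6 pigs. The left panel plots the number of single-exon intergenic transcripts, the middle panel their coverage as a percentage of the coverage assigned to genes, and the right panel the number of single-exon transcripts inside introns; H lies above L in the middle panel (0.279 against 0.208%) and in the right panel (7369 against 5198).

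This higher share was present in several parts of the set, which were chosen after the data were seen. Regions found in all 12 libraries carried 0.126% ± 0.0333 of the coverage of genes in H and 0.0860% ± 0.0190 in L (SD, n = 6 each, exact p = 0.0173, adjusted 0.0390 over 4 parts). Without the 3 regions of highest level they carried 0.0631% ± 0.00782 and 0.0529% ± 0.00518 (SD, n = 6 each, exact p = 0.0195, adjusted 0.0390). Regions found in 1 to 11 libraries carried 0.153% ± 0.0347 in H and 0.122% ± 0.00557 in L (SD, n = 6 each, exact p = 0.0325, adjusted 0.0433), and the top 3 alone 0.0630% ± 0.0339 and 0.0331% ± 0.0182 (SD, n = 6 each, exact p = 0.0693, adjusted 0.0693).

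Single-exon transcripts inside introns, the most similar class, were more numerous in H as well. Their number ran from 5623 through a median of 7068 to 10080 in H and from 3322 through 5365 to 6077 in L. The means were 7369 ± 1490 and 5198 ± 981 (SD, n = 6 each, exact permutation p = 0.00649, adjusted 0.0130 over 4 measures). As a share of transcripts on chromosomes they made up 19.1% ± 2.27 and 15.2% ± 2.17 (SD, n = 6 each, exact p = 0.00649, adjusted 0.0130). Spliced intergenic transcripts numbered 113 ± 12.3 in H and 113 ± 13.7 in L (SD, n = 6 each, exact p = 0.957, adjusted 0.957). Their share was lower in H, 0.296% ± 0.0163 against 0.331% ± 0.0301 (SD, n = 6 each, exact p = 0.0368, adjusted 0.0491), with 0 of 6 H libraries above the L median. The part of the intronic transcripts, which move with the groups as the coverage of intergenic members does, was not tested, nor was that of the erythroid markers. Across the 12 libraries the number of members followed depth (Pearson r = 0.714, permutation p = 0.00649, adjusted 0.00649; Spearman rho = 0.839, p = 0.00111, adjusted 0.00222; 2 relations computed). Within groups r was 0.809 in H and 0.786 in L (n = 6 each), and without H4 and H5, the libraries farthest from the median depth, it was 0.541. Against the number of intronic transcripts r was 0.810 (permutation p = 0.00186, adjusted 0.00372) and rho 0.734 (p = 0.00872, adjusted 0.00872), within groups 0.815 in H and 0.825 in L (n = 6 each), and 0.475 without H4 and L3, so that this relation rests largely on those 2 libraries.

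Most regions were seen rarely, while a small recurrent part held much of the coverage. Of 5869 regions, 2618 (44.6%) were found in 1 library, 1167 in at least 6 and 172 (2.93%) in all 12. Those 172 carried 43.1% of the coverage of all members. The median length of the merged region rose from 915 bases for regions of 1 library to 5626 for regions of all 12, a rise to which the merging itself adds, and 155 of the 172 were assembled as more than 1 piece in at least 1 library. Another region lay within 1000 bases of 3351 regions (57.1%), so that the 5869 regions form 3730 runs. Spliced intergenic transcripts, merged in the same way, gave 315 regions, 47.6% in 1 library and 4.76% in all 12. Intronic single-exon transcripts gave 20468 regions, 52.1% in 1 library and 1.35% in all 12.

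**Figure D2:**
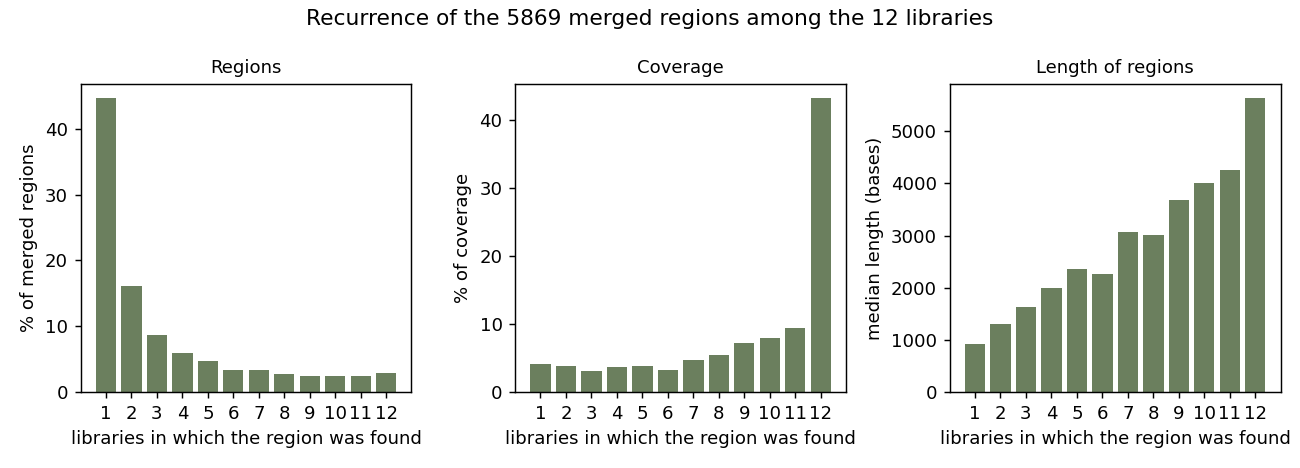
The 5869 merged regions by the number of libraries in which they were found (horizontal axis, 1 to 12), with the percentage of regions, the percentage of coverage and the median length in bases as bars. Regions of 1 library are 44.6% of regions and 4.18% of coverage, and regions of all 12 libraries are 2.93% and 43.1%.

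Of the regions of 1 library, 1708 were in H and 910 in L. The number per library was 285 ± 247 in H and 152 ± 52.2 in L (SD, n = 6 each, exact permutation p = 0.275), with 729 in H4 and 418 in H3. Of all 5869 regions, 2186 were found in H alone and 1091 in L alone, and most of these were the regions of 1 library. In at least 3 libraries of the group, 116 and 56 of them were found. No matching share of genes was computed for these counts, so they are a description. Averaged over the libraries in which a region was found, the level changed little with recurrence, from a median of 0.255 FPKM for regions of 1 library through 0.177 for regions of 6 to 0.283 for regions of all 12.

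Regions lay close to genes and past their 3′ ends. The nearest gene was 2000 to 5000 bases away for 46.4% of regions, while 8.57% of the bases of the intergenic space lie so close. A region was measured from its nearest edge and the space at single bases, so long regions count as closer. Beyond 100000 bases lay 2.08% of regions and 29.5% of the space. Regions past the 3′ end of the nearest gene made up 65.5%, against 51.8% of the space, and at 2000 to 5000 bases the shares were 71.3 and 49.7%. From 50000 to 100000 bases this turned, with 41.0% of 251 regions past a 3′ end against 51.8% of the space. Of the 172 regions of all 12 libraries, 124 lay past a 3′ end and 90 within 5000 bases. Neighbouring regions often share their nearest gene, so these shares are given without a test.

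**Figure D3:**
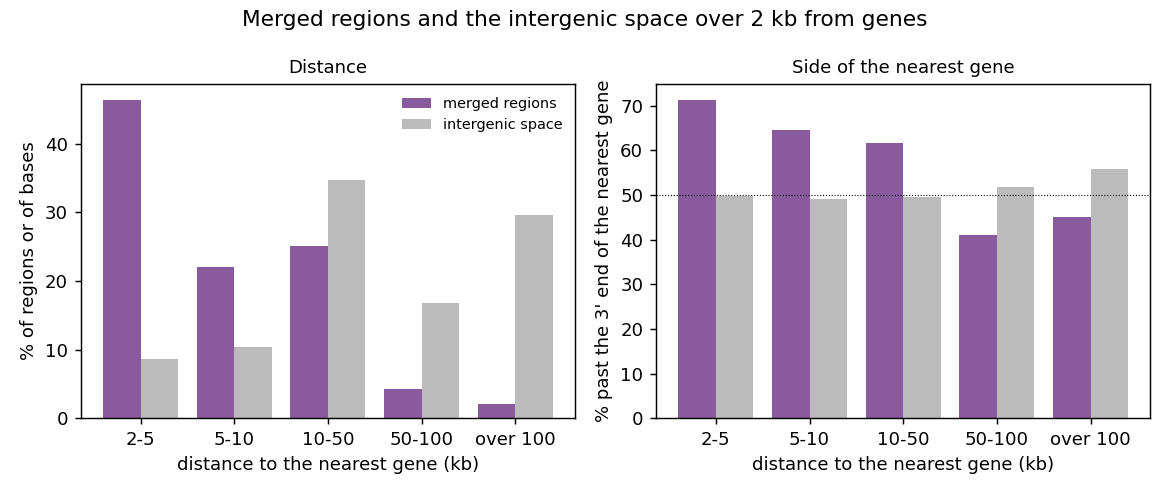
Bars compare the merged regions (purple) with all bases over 2 kb from a gene (grey) in classes of distance to the nearest gene in kb, as percentages in each class (left) and as the percentage lying past the 3′ end of that gene (right, dotted line at 50%). Regions are measured from their nearest edge and the space at single bases. Regions exceed the space at 2-5 kb (46.4 against 8.57%) and lie past the 3′ end more often there (71.3 against 49.7%).

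The genes beside the regions were mostly expressed in the muscle. Protein-coding neighbours numbered 2378, of which 85.3% had a mean level of at least 0.5 FPKM (median 4.67 FPKM), compared with 59.4% of all 19560 protein-coding genes (median 1.22 FPKM). Beside regions of all 12 libraries, 86.5% of 133 protein-coding neighbours reached that level (median 6.39 FPKM). In all, 2909 genes were the nearest to at least 1 region, and KLHL29, a Kelch-like protein, and NAMPT, the enzyme that makes nicotinamide mononucleotide, had the most, with 26 regions each. Nearest genes were protein-coding for 4637 regions, long noncoding for 913 and pseudogenes for 244.

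Some regions lay beside genes of contraction, fat synthesis or the immediate early response. Of 30 annotated contractile genes 9 (30.0%) had a region nearest to them, with 17 regions in all, while 12.2% of all protein-coding genes had one. Only 59.4% of all protein-coding genes reached 0.5 FPKM, against 85.3% of those beside regions. The lists were not compared with genes of like level. The longest was chr6:103595862-103614162, 18301 bases past the 3′ end of MYOM1, a protein of the sarcomere's M-line, which was found in 4 H and 6 L libraries at means of 0.144 and 0.237 FPKM. Past TNNT3, fast troponin T, chr2:1324539-1329309 was found in 1 H and 6 L libraries at 0.116 and 0.185 FPKM. Of 21 adipocyte and lipid synthesis genes 3 (14.3%), ACACA, CIDEA and FABP4, had 8 regions, none of them in more than 3 libraries. Of 20 immediate early genes 7 (35.0%), among them NR4A1, annotated here as a pseudogene, had 17 regions. Of these regions 9 lay before the 5′ end of FOS, a transcription factor of the AP-1 complex, at 2682 to 34822 bases. The nearest of them, chr7:98442897-98446826, was found in 5 H and 3 L libraries at 0.133 and 0.0628 FPKM.

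In GC content, repeats and runs of A or T the regions differed little from the space, while AATAAA or TTTATT was less frequent in them. Median GC content was 42.9% (quartiles 38.7 and 47.7), and the space as a whole had 40.6%. Repeats, as masked in the reference, made up 40.7% of the bases of regions and 39.0% of the space, rising from 38.4% in regions of 1 library to 43.3% in regions of all 12. Runs of at least 10 A or T occurred in 36.7% of windows of 1000 bases in regions and 35.7% in the space. AATAAA or TTTATT occurred in 75.1% of such windows in regions and in 82.4% in the space. Regions per Mb of intergenic space were most frequent on chromosome 12 (13.7) and least on chromosomes X (2.73) and Y (1.25). A match to a spliced mRNA, over at least 50% of the region, at least 85% identity and across a splice junction, was found for 3 of 5869 regions.

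The levels of the 10 highest regions found in all 12 libraries spanned from over 100 FPKM to near 1 FPKM. Level here is the FPKM of the members weighted by the share of the merged region they cover, scaled between libraries. The highest was chrY:24408484-24408999, 516 bases with 62.2% GC and 111063 bases from the nearest gene, a pseudogene. It ran from 282 through a median of 768 to 2038 FPKM in H, and from 182 through 281 to 775 FPKM in L. H2 stood far above the rest and the groups overlapped. The limma difference was 1.15 ± 0.47 (SE) on the log2(FPKM + 0.5) scale, higher in H, with an adjusted p of 0.648. There were 3 other places in the genome with at least 95% identity over 90% of its length. Whether its reads could be assigned to 1 of these places was not tested. The region carried 9.64% of the coverage of all members, and the top 3 regions together 19.2%.

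The next region, chr4:53953010-53954300, is the one that matches mitochondrial DNA on chromosome 4. Its bases 1 to 1288 of 1291 aligned to positions 1837 to 3125 of the mitochondrial genome with 98.3% identity. The region matched genes of 12S rRNA, tRNA-Val and 16S rRNA, and the rRNAs belong to the mitochondrial ribosome. It ran from 45.8 through 141 to 242 FPKM in H and from 27.3 through 70.0 to 164 FPKM in L, and the groups overlapped (limma log2 difference 0.84 ± 0.52, SE, adjusted p = 0.747). On chromosome 9, bases 1 to 631 of chr9:4700194-4701067 aligned to positions 5938 to 6568 with 98.7% identity, from NADH dehydrogenase subunit 2 through 5 tRNA genes to cytochrome c oxidase subunit I. This region ran from 2.86 through 4.48 to 16.8 FPKM in H and from 6.20 through 11.02 to 15.8 FPKM in L, with a limma log2 difference of -0.70 ± 0.45 (SE, adjusted p = 0.752). In H, 2 libraries (H1 and H3) were above 16 FPKM and the other 4 under 5 FPKM. The next region on that chromosome, chr9:4701417-4701654, repeated positions 6353 to 6590 in the opposite direction at 99.6% identity and was found in 8 libraries at a mean of 4.54 FPKM. One more match, chr15:126762472-126762895, was found in 2 libraries. The files held 0 records on the mitochondrial genome itself, and how much of the level of these 4 regions came from mitochondrial RNA was not tested.

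The region before MIR206, chr7:45966584-45969354, was the third highest and had no other copy. It lay 6939 bases before the annotated 5′ end of the microRNA gene and was assembled as 1 piece in every library. It ran from 4.08 through 9.98 to 23.0 FPKM in H and from 6.91 through 8.94 to 11.02 FPKM in L. H1 was the highest and H5 the lowest of all 12, and the L pigs lay inside the range of the H pigs. The limma log2 difference was 0.06 ± 0.34 (SE, adjusted p = 0.977), and its sign turned under several alternatives. A second region, chr7:45969952-45972513, lay between it and MIR206, 3780 bases before the gene. It was found in H4 alone among the H libraries, at 6.61 FPKM, and in 5 L libraries at up to 4.64 FPKM. Counting every assembled transcript over the same bases, 5 H and 5 L libraries had a level above 0, up to 14.9 FPKM in H1, and the log2 difference of -1.83 ± 0.74 (limma, SE, adjusted p = 0.646) turned to 0.53.

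The others described here consisted partly of repeats. All 2809 bases of chr5:45545357-45548165, beside CCDC91, a protein of the trans-Golgi network, were masked, and 1629 other places matched it at 95% identity. It ran from 6.22 through 7.71 to 8.69 FPKM in H and from 4.96 through 6.07 to 6.86 FPKM in L (limma log2 difference 0.31 ± 0.12, SE, adjusted p = 0.642). It varied little among pigs, unlike the highest region of the Y chromosome and those of mitochondrial sequence. On chromosome 7, chr7:66829184-66831228, fully masked with 307 other copies, ran from 1.51 to 2.25 FPKM in H and from 0.993 to 1.71 FPKM in L, and chr7:46606689-46607643, 99.2% masked, from 0.826 to 5.17 and from 1.64 to 4.50 FPKM. Past PHKB, the beta subunit of the phosphorylase kinase that starts glycogen breakdown, chr6:36988686-36991355 ran from 1.103 through 1.74 to 2.20 FPKM in H and from 0.672 through 1.47 to 1.80 FPKM in L, 3069 bases from a gene at 133 FPKM ± 32.7 in H and 143 ± 32.3 in L (SD, n = 6 each). The lowest of the 10, chrY:25247726-25253917, with 13 other copies, ran from 1.09 to 2.00 and from 0.517 to 1.76 FPKM.

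**Figure D4:**
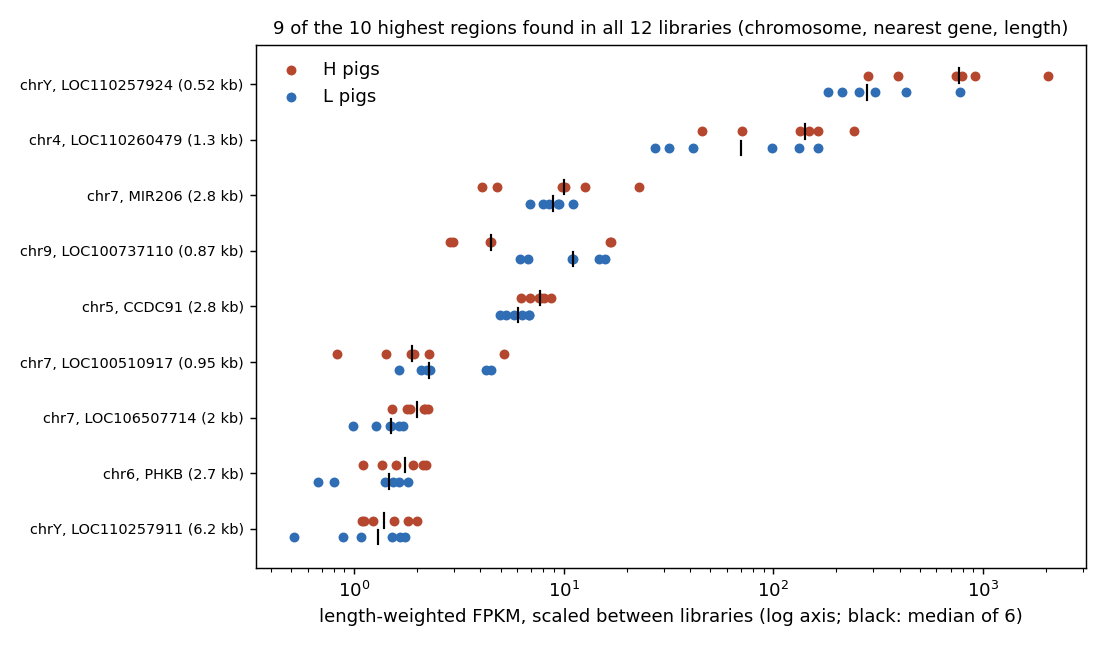
Levels of 9 of the 10 highest regions found in all 12 libraries, as length-weighted FPKM on a log axis, 1 point per pig (red H, blue L) and a black line at the median of 6. Rows are named by chromosome, nearest gene and length. The top row runs from 182 to 2038 FPKM, and in all 9 rows the H and L points overlap.

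The longest regions found in at least 6 libraries were chains of weak pieces. The longest, chr8:109770092-109800727, had 30636 bases built from 134 members, 7 to 14 per library, 104186 bases from the nearest gene. Its level ran from 0.193 through 0.325 to 0.485 FPKM in H and from 0.215 through 0.302 to 0.360 FPKM in L. The next, chr17:61913936-61938769, lay 8867 bases before SLCO4A1, a transporter of organic anions, at means of 0.277 FPKM ± 0.123 in H and 0.299 ± 0.218 in L (SD, n = 6 each). Past PALLD, an actin-bundling protein, chr14:20652213-20675351 was found in 3 H and 6 L libraries, and L3 at 1.02 FPKM lay far above the other L libraries (0.0306 to 0.0849 FPKM). Before AKIRIN2, a nuclear protein, chr1:56114357-56136027 was found in all 12 and ran from 0.129 to 1.603 FPKM in H and from 0.142 to 0.567 FPKM in L. The fifth, chr1:189556606-189577961, was found in 4 H and 5 L libraries at means of 0.260 and 0.271 FPKM.

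No region differed between the groups at the threshold. The 152 regions that reached a mean level of 0.5 FPKM in either group were tested with limma together with 12405 genes, and 0 regions had an adjusted p under 0.1. Of all 12557 genes and regions 0.00796% were called, which is 1 gene. The smallest adjusted p of a region was 0.425. At an unadjusted p under 0.05, 17 regions were higher in H and 4 lower, or 11.2 and 2.63% of the regions, beside 4.01 and 3.35% of all genes and regions. The median log2 difference was 0.16 over regions and 0.00 over genes, and 92 regions were higher in H and 60 lower. Of the 172 regions found in all 12 libraries, tested with no minimum level, 117 (68.0%) were higher in H, with a median of 0.09, compared with 49.4% of 10470 genes above 0 in all 12. At an unadjusted p under 0.05 in that fit, 22 of the 172 were higher and 2 lower. Of all 20884 genes and regions in it, 3.74% were higher and 2.38% lower. That set also holds rows at 0 in some libraries, so it is not matched to the 172 regions. The other 5717 regions were below the minimum. Many of the regions share repeats or a neighbouring gene, and these shares are descriptions.

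The smallest unadjusted p among regions higher in H belonged to a pair of adjacent regions past the 3′ end of C9H1orf21, an open reading frame of unknown role, at 11683 and 19973 bases. For chr9:125857685-125865784 the level ran from 0.273 through 0.555 to 1.15 FPKM in H and from 0 through 0.0536 to 0.147 FPKM in L, without overlap (limma log2 difference 0.90 ± 0.20, SE, adjusted p = 0.425). For chr9:125865975-125876645 it ran from 0.464 through 0.962 to 1.19 and from 0 through 0.0349 to 0.760 FPKM (1.02 ± 0.28, limma adjusted p = 0.553). When every assembled transcript over the same bases was counted, all 12 libraries had a level above 0 at both, and the groups overlapped (0.273 to 1.31 FPKM in H and 0.174 to 0.725 FPKM in L at the first). The log2 differences were then 0.21 and 0.13 (limma adjusted p = 0.860 and 0.913).

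Another pair lay past the 3′ end of CD9, a tetraspanin of the cell surface. At chr5:64407430-64415235 the level ran from 0.135 through 0.701 to 0.974 FPKM in H and from 0 through 0.0717 to 0.467 FPKM in L, and at chr5:64402418-64407102 from 0.369 through 0.756 to 0.942 and from 0 through 0.187 to 0.497 FPKM. Both were found in all H libraries and in L4, L5 and L6 (limma log2 differences 0.85 ± 0.25 and 0.79 ± 0.25, SE, adjusted p = 0.553 for both). CD9 itself was at 40.5 FPKM ± 7.68 in H and 47.0 ± 16.8 in L (SD, n = 6 each). The fifth, chr1:68917723-68918575, was 99.2% masked with 48 other copies and was found in 6 H and 2 L libraries (0.77 ± 0.23, limma adjusted p = 0.553).

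Among regions lower in H the smallest p belonged to chr13:39728585-39733372, 8356 bases past the 3′ end of SLMAP, a membrane protein of the sarcolemma. It was found in all 12 libraries and ran from 0.0354 through 0.0958 to 0.395 FPKM in H and from 0.373 through 0.627 to 1.02 FPKM in L. H1 alone among the H libraries reached into the L range. The limma log2 difference was -0.82 ± 0.20 (SE, adjusted p = 0.543), while SLMAP itself was at 37.2 FPKM ± 10.02 in H and 40.6 ± 13.2 in L (SD, n = 6 each). The values were the same when all assembled transcripts were counted. At chr13:9920809-9921588 the level was above 0 in H6 alone (0.715 FPKM) and in 5 L libraries (0.462 to 1.16 FPKM), with a limma adjusted p of 0.632. At chr12:27201211-27201494, fully masked with 282 other copies, it was above 0 in 3 L libraries (4.29 to 4.96 FPKM) and in no H library. At chr1:104713648-104715949, past TCF4, a transcription factor of the basic helix-loop-helix family, it was above 0 in 1 H and 4 L libraries. Counting every assembled transcript over the same bases, members included, all 12 libraries had a level above 0 (3.01 to 5.43 FPKM in H and 1.95 to 5.42 FPKM in L).

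Presence and absence separated the groups at few places. Found in at least 5 libraries of H and in none of L were 7 regions (0.119% of 5869), and in at least 5 of L and none of H 4 regions (0.0682%). Of 15015 annotated genes with a level above 0 in a library, 0.0666 and 0.02% did the same. These regions were picked by this contrast, so their values are a description. Each was weak, with group means of 0.0755 to 0.281 FPKM, near the level at which a transcript is assembled at all, and an absence says only that no transcript was assembled there.

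Both complete separations are the places whose sequences are shown. The region chr5:54963962-54968877, 5091 bases past LOC110260731, was found in 6 of 6 H libraries, from 0.0589 through 0.0916 to 0.333 FPKM, and no transcript of any kind touched it in L. The region chr4:105913564-105917231 was found in 6 of 6 L libraries, from 0.0805 through 0.146 to 0.241 FPKM, and no transcript touched it in H. It lay 21393 bases past the 3′ end of AMPD1, the AMP deaminase of skeletal muscle, and the adjacent chr4:105910788-105912275 was found in L1, L2, L3, L5 and L6 and in no H library. AMPD1 was at 207 FPKM ± 105 in H and 177 ± 71.0 in L (SD, n = 6 each). Most pieces began and ended at different places in each pig. In the first region of chromosome 4, those of L1, L2, L5 and L6 ended within 1.47 to 1.49 kb of its start, and in the region of chromosome 5 those of H1, H2 and H5 ended within 2.326 to 2.329 kb.

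The other regions of H alone lay beside YWHAB, a 14-3-3 protein (chr17:47293131-47295738, mean 0.118 FPKM), ATG101, a factor of autophagy (chr5:17428281-17431671, 0.140), NACA, a ribosome-associated chaperone subunit (chr5:22037832-22042487, 0.0755), UTP3, a factor of ribosome assembly (chr8:67480032-67483057, 0.129), RDX, radixin (chr9:38302935-38307324, 0.126), and LOC110262051 (chr8:3785463-3786988, 0.181 FPKM). The other regions of L alone lay beside CACNG4, a subunit of calcium channels (chr12:13457788-13458776, mean 0.281 FPKM), and PAFAH2, a phospholipase (chr6:83402131-83403800, 0.132 FPKM). Other kinds of transcripts covered part of 5 of the 11 in the group that lacked a member. At UTP3 they did so in 4 L libraries, up to 2.22 FPKM, and at CACNG4 in 4 H libraries, up to 0.793 FPKM. At ATG101 it was so in 2 L libraries, at NACA in 1 L library and at PAFAH2 in 1 H library.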

How the data were processed

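RNA-seq of longissimus dorsi from 6 H and 6 L pigs was used, 1 library of paired reads of 76 bases per pig. Following the submitters' processing notes and the study's methods, the authors checked reads with FastQC, trimmed them with Trim Galore, aligned them with TopHat2 2.1.0, using Ensembl transcripts as a guide on Sscrofa11.1, and ran Cufflinks 2.2.1 on every library separately to assemble and quantify. The deposited files list transcripts with exons, FPKM (scaled to the mapped fragments of each library) and mean coverage. They hold no counts and no scaling between libraries, so depth was taken here from coverage per FPKM. The study also reports the number of reads of each library, which was not used here.

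Genes came from the RefSeq annotation of Sscrofa11.1. Of 170957 distinct introns in the files 98.5% had standard splice bases on this sequence. Another 6094 transcripts on scaffolds were left out. FPKM of members was weighted by length over the merged region, divided by a median ratio over 10470 genes above 0 in all libraries, and set to 0 where none was assembled. Regions and genes reaching a group mean of 0.5 FPKM were fitted with limma 3.58.1 in R 4.3.3 on log2(FPKM + 0.5), with trended variances and two-sided p-values. Benjamini-Hochberg adjustment covered all of them, and the threshold was 0.1. Differences on this scale understate changes of weak regions. Values per library were compared by exact two-sided permutation tests over 924 arrangements, whose smallest p is 0.00216, and correlations by permutation tests. Copies were sought with blastn 2.17.0. The fit was tested on simulated data.

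Named regions were those past the threshold, the 10 highest found in all 12 libraries (1 of them is not reported here), the 5 longest in at least 6, those found in at least 5 libraries of 1 group and 0 of the other, and the 5 with the smallest p in each direction. Members, lists and rules were chosen with earlier results of these data known. Individual numbers are shared between groups in the labels but did not pair the pigs. Alternatives were other distances, lengths, minimum levels, denominators, pseudocounts, scalings, merging rules, limma settings, a block and each pig left out.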

Additional observations from a re-analysis of the deposited data

Results flagged for a closer look

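In 50 groups of 6 libraries, 8 had a highest or lowest library whose gap to the next, divided by the range of the group, passed Dixon's 95% critical value. Chance gives about 1 such group in 20 where values are normally distributed. The 3 groups with a level above 0 in 1 library alone pass by construction, and the named regions were picked from these data. The 8 flags are therefore a description and not set against that rate. The median length of members was highest in H1, at 1123 bases (next 1060), and lowest in L2, at 1003 bases (next 1053). The level of chrY:24408484-24408999 was highest in H2, at 2038 FPKM (next 914), that of chr7:46606689-46607643 in H1, at 5.17 FPKM (next 2.27), and that of chr9:125857685-125865784 in H2, at 1.15 FPKM (next 0.586). In H, 3 regions had a level above 0 in 1 library alone, chr13:9920809-9921588 in H6 at 0.715 FPKM, chr7:45969952-45972513 in H4 at 6.61 FPKM and chr1:104713648-104715949 in H3 at 3.01 FPKM.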

How the results depend on the processing

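The difference in coverage share (0.0709 percentage points, exact p = 0.00649) kept its direction and an unadjusted p under 0.05 under every alternative run except the block. With individual numbers as a replicate block it had an exact sign-flip p of 0.0625, and the correlations of same-numbered pigs' deviations from their group means were -0.078 to 0.061, with 1 of 6 H pigs closest to its own number. Under the block the number, the share, the median length and the median FPKM kept their side of the threshold, 0 regions were called, and 0 genes were called where 1 had been. The intronic, spliced and divided coverage comparisons were not run with it. Leaving out each pig in turn gave 0.0592 to 0.0820, the 3 highest regions left out gave 0.0424, and over 10000 bases from genes it was 0.0432. The share of transcripts turned to -0.0395 without H4 and L3, which was chosen after the data were seen. The difference in median FPKM (0.00152) turned to -0.00126 and -0.00131 over 5000 and 10000 bases from genes and to -0.000303 as deposited, and ran from -0.0151 to 0.0152 with each pig left out, at -0.0151, -0.00692, -0.00426 and -0.0106 without H2, H5, L4 or L6. The cause was not tested.

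In limma 0 regions were called under all alternatives, with smallest adjusted p of 0.261 to 0.802. At an unadjusted p under 0.05, higher and lower counts were 190 and 56 of 5869 with no minimum, 7 and 2 of 59 at 1 FPKM, 110 and 22 of 1167 in at least 6 libraries, 55 and 38 of 653 with summed FPKM, 51 and 12 of 556 with any assembled transcript, 11 and 4 of 148 after quantile normalization, 13 and 9 of 154 without L3, and 11 and 10 of 152 without H4 and L3. The log2 difference of chr7:45966584-45969354 turned to -0.16 with any transcript and -0.093 without H4 and L3, and ran from -0.19 to 0.28 with each pig left out (below 0 without H1, H4 or L3). Any transcript also turned chr7:46606689-46607643 to 0.14, chr7:45969952-45972513 to 0.53 and chr1:104713648-104715949 to 0.49. Regions of 1 library were 2540 with any transcript over 50% of the region and 3268 of 6895 when merged by 50% overlap, and regions of all 12 were 178 and 164. Weak coverage limits what was assembled, so absence is not absence of RNA.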
